A study of Mus musculus with 8 samples.

Results

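The Serpina1 family of the mouse liver, the 5 paralogs Serpina1a, Serpina1b, Serpina1c, Serpina1d and Serpina1e, was followed through 8 liver libraries, together with the splice junctions that lie within 1 of these genes and those that join 2 of them. The genes were chosen by name: 12 of the 115699 deposited transcript blocks carried a RefSeq or Vega identifier of a member, and these stood for 5 of the 24196 genes that could be named. From the junction lists, 342 junctions had both ends inside the same member and 155 had their ends in 2 different members. The family and its joining junctions had been picked out from earlier results of these libraries, so their levels and junction reads are given as descriptions without a test, and the comparisons over time were read from fits over all genes.

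The livers came from wild-type C57/BL6 mice that had been kept for a week under alternating light and dark and then moved into constant darkness a day ahead of sampling. Tissue was taken at circadian times (CT, hours of the internal day) 23, 29, 35, 41, 47, 53, 59 and 65, which put each of the clock phases CT23, CT5, CT11 and CT17 on both of 2 internal days. For each time the RNA of 3 animals was pooled and 1 library of polyadenylated RNA was made, so no time had a replicate, and age and sex of the animals were not given in the labels. Pool, sequencing lane and time cannot be told apart.

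Serpina1 genes encode alpha-1 antitrypsin, a serine protease inhibitor that hepatocytes secrete into the blood and that restrains neutrophil elastase. Like other inhibitory serpins it offers an exposed reactive centre loop as bait, and the protease that cuts this loop is trapped and inactivated. Humans have a single SERPINA1 gene with a related pseudogene beside it, whereas in mice the gene was duplicated, and the mouse copies differ most in the stretch that encodes the loop.

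Depth was 11.7 to 13.9 M reads per unit of RPKM (reads per kilobase of feature and M reads, where M stands for mega) in 7 libraries and 22.9 M in CT35. Summed markers of hepatocytes (6 genes, among them Alb, Ttr and Cps1) reached 42806 to 71008 RPKM, against 13.9 to 66.2 RPKM for the summed markers of Kupffer cells, sinusoidal endothelium, stellate cells and of neutrophils and red cells, and at most 9.47 RPKM for those of bile duct and exocrine pancreas. CT29 and CT35 stood apart from the other 6 libraries in how reads spread along the members, as described with the junctions. Fitted differences over time and correlations of the members are given with and without these libraries.

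All 5 genes lay on the minus strand of mouse chromosome 12 (mm9 build), in the order Serpina1e, Serpina1c, Serpina1a, Serpina1d and Serpina1b along the direction of transcription. Serpina1e spanned chr12:105185141-105197185, Serpina1c chr12:105133136-105143160, Serpina1a chr12:105091669-105101829, Serpina1d chr12:105001797-105011843 and Serpina1b chr12:104966366-104976399. Each had 5 exons, of which the first is untranslated and exons 2 to 5 carry the coding sequence. A non-coding gene on the opposite strand, B430119L08Rik (chr12:105134107-105136994), overlapped Serpina1c. Exon 1 of that gene covers exon 4 of Serpina1c and was listed at 19510 RPKM by the lower value in CT23, so the values do not separate the strands there.

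The coding sequences, taken from GENCODE M21 transcripts on GRCm38, were each 1239 bases long and aligned without a gap. Identity between pairs ran from 96.3% to 98.5%. The closest pair was Serpina1a and Serpina1c, which differed at 19 positions, with 0 of these in exon 2. Exon 2 was the most uniform part of the family, with 18 variable positions among 628 coding bases, against 29 of 271 in exon 3, 15 of 151 in exon 4 and 24 of 189 coding bases in exon 5. The longest run shared by all 5 members lay in exon 2 and measured 226 bases, compared with 34, 42 and 29 bases in exons 3, 4 and 5. It is shown because a read that falls inside it carries no letter that tells the members apart.
Exon 2, identical in the 5 members: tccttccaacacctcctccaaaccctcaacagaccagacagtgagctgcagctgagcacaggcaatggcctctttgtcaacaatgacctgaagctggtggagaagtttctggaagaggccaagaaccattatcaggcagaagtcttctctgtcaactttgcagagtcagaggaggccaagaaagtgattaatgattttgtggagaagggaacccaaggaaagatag
On mm9, exon 2 lay at chr12:105188991-105189622 in Serpina1e, chr12:105136968-105137599 in Serpina1c, chr12:105095635-105096266 in Serpina1a, chr12:105005626-105006257 in Serpina1d and chr12:104970171-104970802 in Serpina1b.

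In exon 5 the members differ most, and the stretch with the most variable positions (20 of 90 bases, positions 53 to 142 of the coding part of the exon) covers the reactive centre loop. It is shown for each member, with capitals at the positions where the 5 sequences are not all alike.
Serpina1a exon 5: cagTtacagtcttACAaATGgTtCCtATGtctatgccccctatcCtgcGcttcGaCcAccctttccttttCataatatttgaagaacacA
Serpina1b exon 5: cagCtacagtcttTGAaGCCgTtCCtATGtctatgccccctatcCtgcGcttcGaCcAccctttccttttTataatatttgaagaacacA
Serpina1c exon 5: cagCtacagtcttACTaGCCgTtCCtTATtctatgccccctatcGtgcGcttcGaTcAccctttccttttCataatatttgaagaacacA
Serpina1d exon 5: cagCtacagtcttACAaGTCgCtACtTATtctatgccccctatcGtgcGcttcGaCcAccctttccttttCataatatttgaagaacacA
Serpina1e exon 5: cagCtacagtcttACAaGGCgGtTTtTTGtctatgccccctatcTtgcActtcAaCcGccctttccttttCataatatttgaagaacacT
Over the coding part of exon 5, Serpina1e alone differed from the other members at 6 positions, Serpina1a at 4, Serpina1b and Serpina1c at 3 each and Serpina1d at 0. In exon 2 these counts were 5 for Serpina1e, 4 for Serpina1b, 3 for Serpina1d and 0 for Serpina1a and Serpina1c. On mm9, exon 5 lay at chr12:105185142-105185419 in Serpina1e, chr12:105133136-105133413 in Serpina1c, chr12:105091669-105092076 in Serpina1a, chr12:105001797-105002081 in Serpina1d and chr12:104966366-104966643 in Serpina1b.

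The deposited tables give 2 values for every transcript, a lower and an upper one, and in no library was the upper value below the lower. No source at hand says what separates them. For the Serpina1 genes they lay far apart. Over the 8 libraries the lower value was 4.63% of the upper one in Serpina1a on average, 15.3% in Serpina1c, 17.8% in Serpina1b, 21.1% in Serpina1d and 48.8% in Serpina1e.

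By the lower value, Serpina1e was the most abundant member in all 8 libraries and Serpina1a the least. Serpina1e stood at 12119, 7481, 9271, 6968, 9622, 8194, 7640 and 9852 RPKM from CT23 to CT65 in order of time. It was highest in CT23 and lowest in CT41, a 1.74-fold span. Serpina1c stood at 4393, 4730, 3519, 5756, 4767, 4543, 4199 and 5011 RPKM in the same order, highest in CT41 and lowest in CT35.

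Serpina1b was the steadiest member by the lower value, at 3568, 3727, 4145, 4269, 3932, 4089, 3817 and 3728 RPKM, a 1.20-fold span. Serpina1d stood at 3687, 3644, 2698, 4140, 3535, 4034, 3324 and 3853 RPKM, with its lowest value in CT35 like Serpina1c. Within single libraries, Serpina1c was above Serpina1d in 8 of 8 and above Serpina1b in 7 of 8, with CT35 as the exception, although the ranges of these genes over the libraries overlapped. Serpina1b and Serpina1d changed places, with Serpina1b higher in 6 libraries and Serpina1d in 2. Serpina1a stood at 1020, 1103, 1592, 1213, 1210, 1161, 1087 and 986 RPKM. Its highest value was that of CT35, the library in which Serpina1c and Serpina1d were lowest.

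Summed over the 5 genes the lower value ran from 20067 RPKM in CT59 to 24787 RPKM in CT23, with a median of 22183. The sum moved 1.24-fold while its parts moved by up to 1.74-fold. Serpina1e held on average 39.9% of the sum (31.2% to 48.9%), Serpina1c 20.8% (16.6% to 25.8%), Serpina1b 17.7% (14.4% to 19.5%), Serpina1d 16.3% (12.7% to 18.5%) and Serpina1a 5.32% (4.12% to 7.50%). Counting error was small beside these ranges: in CT23, 47.7% of the family's reads fell to Serpina1e, with an exact 95% binomial interval of 47.5% to 47.8%. Intervals of this kind cover counting error only, since reads copied by PCR are not independent molecules.

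**Figure D1:**
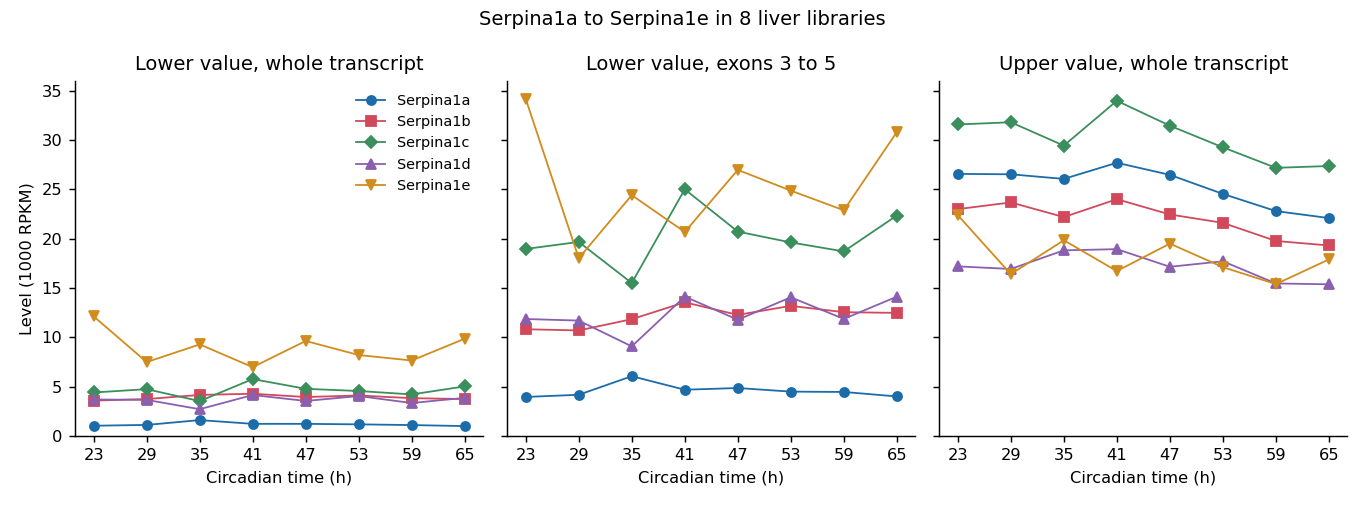
Levels of the 5 Serpina1 genes on a linear axis in multiples of 1000 RPKM against circadian time in hours, 1 point per library, from left to right as the lower value of the whole transcript, the lower value of exons 3 to 5 and the upper value of the whole transcript. Serpina1e leads in all 8 libraries on the left, Serpina1c overtakes it in CT29 and CT41 in the middle, and Serpina1c leads in all 8 on the right.

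The upper value gave another order. Serpina1c led in all 8 libraries with 27193 to 33995 RPKM, followed in all 8 by Serpina1a with 22093 to 27706 and Serpina1b with 19312 to 24009 RPKM. Serpina1e (15391 to 22389 RPKM) and Serpina1d (15373 to 18940 RPKM) came last, and their ranges overlapped. Serpina1a was thus the least abundant member by the lower value and next to the top by the upper one over the whole transcript. This difference in rank did not carry over to exons 3 to 5, as given with the exon values.

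The gap between the values was a matter of single exons. In exon 2, whose coding bases are identical in Serpina1a and Serpina1c, the lower value averaged 103 RPKM in Serpina1a and 383 RPKM in Serpina1c, which was 0.218% and 0.750% of the upper value. In the same exon the lower value was 6.53% of the upper one in Serpina1d, 6.97% in Serpina1b and 28.9% in Serpina1e. In exons 3 to 5 it was 75.2% to 98.9% in Serpina1b, Serpina1c, Serpina1d and Serpina1e, and 32.2% to 44.2% in Serpina1a. The untranslated exon 1 ranged more widely than any other, at 0.0695% in Serpina1c, 0.161% in Serpina1a, 29.6% in Serpina1b, 54.8% in Serpina1e and 75.3% in Serpina1d.

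A count of short windows shows how much of the coding part of each exon is particular to its gene. Of the 50-base windows of the coding part of exon 2, 0% of those of Serpina1a and of Serpina1c, 25.6% of those of Serpina1d, 28.2% of those of Serpina1b and 36.4% of those of Serpina1e occurred in no other member, and 55.1% occurred in all 5. The order of the members by this share was the order by the share of the upper value that the lower one held. The correspondence was not complete. In exon 4 of Serpina1c 0% of the 50-base windows were particular to the gene, and the lower value was still 75.8% of the upper one. In the coding part of exon 5 of Serpina1a 85.7% were particular, and over the whole exon the lower value was 42.5% of the upper one. That exon measured 408 bases, of which 189 are coding, and windows of the rest were not counted. Of 100-base windows, 36.5% were particular in exon 4 of Serpina1c and 100% in the coding part of exon 5 of Serpina1a.

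**Figure D2:**
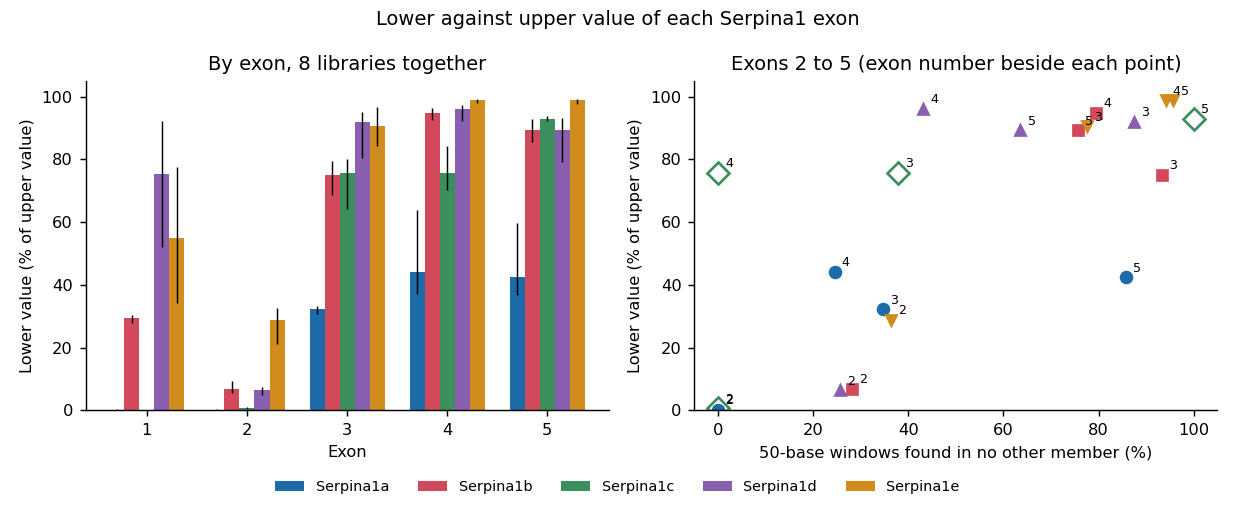
Lower value as a percentage of the upper value for each exon of the 5 Serpina1 genes. On the left, bars give the 8 libraries together and black lines the range over libraries. On the right, exons 2 to 5 are set against the percentage of 50-base windows of their coding part that occur in no other member. Exon 2 of Serpina1a and Serpina1c sits at 0.218% and 0.750%, exon 4 of Serpina1c at 75.8% although none of its 50-base windows is particular to it.

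Restricted to exons 3 to 5, where the lower value lay closer to the upper one, the lower levels were higher than over the whole transcript in each member and the order was less fixed. Serpina1e ranged from 18020 to 34181 RPKM and Serpina1c from 15502 to 25015 RPKM, with Serpina1c above Serpina1e in CT29 and CT41 and below it in the other 6 libraries. Serpina1d ranged from 9073 to 14125 RPKM and Serpina1b from 10691 to 13546 RPKM, and these neighbours changed places between libraries. Serpina1a stayed lowest in all 8 libraries, at 3940 to 6047 RPKM. Shares of the sum over these exons were 33.9% for Serpina1e, 27.0% for Serpina1c, 16.5% for Serpina1d, 16.4% for Serpina1b and 6.22% for Serpina1a. By the upper value the same exons gave nearly the same order, with means of 26369 RPKM for Serpina1e, 24768 for Serpina1c, 13981 for Serpina1b, 13189 for Serpina1d and 11781 for Serpina1a. Serpina1a was then lowest in 6 libraries and Serpina1d in 2, CT35 and CT47. This restriction was chosen after the exon values had been seen.

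Reads across each gene's own splice junctions are a further readout of the same libraries. At intron 3, which joins coding exons 3 and 4, Serpina1e had 382908 reads over the 8 libraries, Serpina1c 311789, Serpina1d 205023, Serpina1b 193580 and Serpina1a 80368. These are 32.6%, 26.6%, 17.5%, 16.5% and 6.85% of the family's reads at that intron. Intron 3 held more reads than any other junction in each member except Serpina1a, whose intron 4 had 82193. At intron 4 the shares were 31.7% for Serpina1e, 26.9% for Serpina1c, 16.7% for Serpina1d, 13.1% for Serpina1b and 11.6% for Serpina1a. The order by junction reads was that by the mean lower value of exons 3 to 5, and these readouts share their libraries.

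The junctions beside exon 2 looked different. At intron 1, Serpina1a had 562 reads over the 8 libraries and Serpina1c 435, against 41918 in Serpina1b, 61951 in Serpina1d and 167903 in Serpina1e. At intron 2, Serpina1a had 785 reads and Serpina1c 18816, against 21709 in Serpina1d, 32161 in Serpina1b and 84488 in Serpina1e. The pair with identical coding bases in exon 2, Serpina1a and Serpina1c, had the fewest reads at both introns. At intron 2, however, Serpina1c was close to Serpina1d and far above Serpina1a. In Serpina1a, an inner exon annotated by Vega between exons 1 and 2 added 354 reads from exon 1 to it and 203 from it to exon 2, and a second such exon added 25 and 30.

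CT29 and CT35 differed from the other libraries in this profile. In CT29 the intron 4 junction had 123 to 231 reads per 100 at intron 3 in the 5 members, against 34.1 to 121 in the other 7 libraries, and each member was higher in CT29 than in any of them. For Serpina1e the value was 178 in CT29 and 40.1 to 66.9 in the others, and for Serpina1b it was 123 in CT29 and 34.1 to 50.02 in the others. In CT35 the intron 2 junction stood out, with 40.5 reads per 100 at intron 3 in Serpina1e, 25.9 in Serpina1b, 19.9 in Serpina1d and 12.2 in Serpina1c. The other libraries reached at most 19.6 in Serpina1e, 16.9 in Serpina1b, 10.2 in Serpina1d and 5.45 in Serpina1c. Serpina1a went the other way in CT35, with 0.200 reads at intron 2 per 100 at intron 3, against at least 0.966 in the other libraries.

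**Figure D3:**
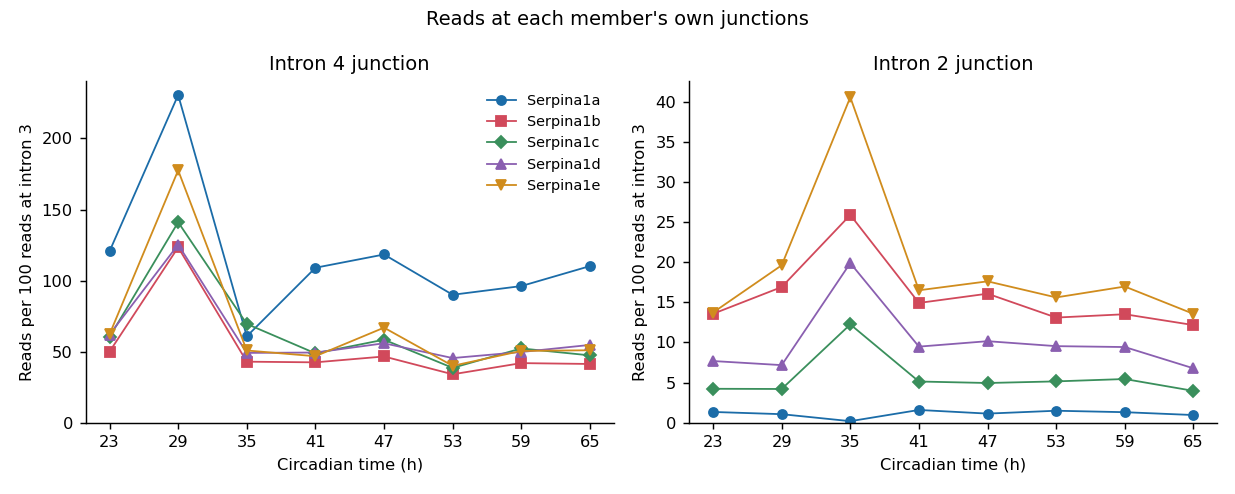
Reads across the intron 4 junction (left) and the intron 2 junction (right) of each Serpina1 gene, per 100 reads across its intron 3 junction, against circadian time in hours, 1 point per library. CT29 stands at 123 to 231 on the left, and CT35 at 12.2 to 40.5 in every gene but Serpina1a on the right.

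In CT29 the level of exon 3 moved with the junctions, while that of exon 5 moved little. Exon 5 per 100 of exon 4 was 50.5 in Serpina1e, within its range of 46.2 to 51.3 in the 6 libraries other than CT29 and CT35. The other members were slightly above theirs, such as Serpina1b with 49.8 against at most 47.1. The lower value of exon 3 in CT29 was 23.9 to 28.7 per 100 of exon 4 in the 5 members. It was 34.9 to 48.3 in the same 6 libraries and 39.2 to 57.4 in CT35. Relative to its own median over the 8 libraries, this ratio was 0.61 to 0.66 in CT29 in the members. Over the 211 other genes with 5 exons and a mean of at least 10 RPKM its median in CT29 was 0.99, with 10th and 90th percentiles of 0.73 and 1.37. CT29 and CT53 share the clock phase CT5, and in CT53 the members stood at 1.10 to 1.18. The part of the library, the pool or the lane in this was not tested.

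Reads also lay inside introns. Introns 3 and 4 averaged 564 RPKM and 716 RPKM in Serpina1e, 501 and 1121 RPKM in Serpina1c, 315 and 367 RPKM in Serpina1b, 149 and 326 RPKM in Serpina1d, and 24.6 and 35.6 RPKM in Serpina1a, by the lower value. The much longer intron 1 averaged 4.46 to 7.35 RPKM in the 5 members. In Serpina1b, Serpina1c, Serpina1d and Serpina1e both introns were lowest in CT35, with 42.3 to 240 RPKM in intron 3 and 146 to 552 RPKM in intron 4. For Serpina1c the antisense gene covers intron 3, so its reads there cannot be assigned to a strand.

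Across time, none of the 5 members passed the test for a 24-h component. The background for this test was 348 of 11498 genes called (3.03%), by limma on log2(RPKM + 0.5) fitted with cosine and sine terms of 24-h period and read at an adjusted p under 0.05, and 402 (3.5%) by edgeR's quasi-likelihood test on the reads recovered from the values. The fitted log2 difference from peak to trough was 0.37 ± 0.26 (SE) in Serpina1e (limma, adjusted p = 0.693) and 0.33 ± 0.24 in Serpina1c (limma, adjusted p = 0.696). In Serpina1d it was 0.28 ± 0.24 (limma, adjusted p = 0.773), in Serpina1a 0.25 ± 0.25 (limma, adjusted p = 0.821) and in Serpina1b 0.09 ± 0.21 (limma, adjusted p = 0.962). The median over the members was 0.28 on the log2 scale, beside 0.36 over all genes tested. These sizes rest in part on CT35. Without it the log2 difference was 0.57 in Serpina1e, 0.22 in Serpina1c, 0.08 in Serpina1d, 0.05 in Serpina1a and 0.06 in Serpina1b, while without CT29 it was 0.37, 0.42, 0.29, 0.27 and 0.09 in the same order of genes. By the upper value it was 0.26, 0.16, 0.02, 0.13 and 0.14. No member was called in any of these fits (limma, adjusted p of at least 0.456). With 1 pooled library per time these p-values measure the spread of libraries around the curve, not that between animals. In bulk tissue, fewer hepatocytes and less RNA per hepatocyte cannot be told apart.

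No member was called between phases or between days. For CT23 against CT11, 234 genes were called (2.04%) and 0 members, with log2 differences of 0.36 in Serpina1e, 0.27 in Serpina1d, 0.25 in Serpina1c, -0.09 in Serpina1b and -0.24 in Serpina1a. For CT5 against CT17, 138 genes were called (1.2%) and again 0 members, with log2 differences between -0.21 in Serpina1c and 0.05 in Serpina1a. CT35 is 1 of the 2 libraries of phase CT11, and without it the CT23 against CT11 difference was 0.57 in Serpina1e and between -0.05 and 0.05 in the other members. CT29 is 1 of the 2 of phase CT5, and without it the CT5 against CT17 difference lay between -0.34 in Serpina1c and 0.13 in Serpina1a. Members were called in neither case. The count of genes called for CT5 against CT17 was 41 without CT29 and 320 without CT35. The second day against the first, with the phase as a block, called 0 of 11498 genes (0%) by limma and 0 by edgeR, with 232 genes at an unadjusted p under 0.05 by limma. Each member was higher on the second day at 2 of the 4 phases and lower at the other two. The widest such gap was in Serpina1a at phase CT11, with 1087 RPKM at CT59 and 1592 RPKM at CT35, a ratio of 0.683 and so a 1.46-fold difference that involves CT35. The next was in Serpina1e at phase CT17, with 9852 RPKM at CT65 and 6968 RPKM at CT41, a ratio of 1.41.

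By the lower value, the members did not move as a block. Over the 8 libraries, Pearson's r of their log2 lower values was 0.88 for Serpina1c with Serpina1d and 0.72 for Serpina1a with Serpina1b, but -0.68 for Serpina1a with Serpina1d and -0.56 for Serpina1b with Serpina1e. Without CT35, where Serpina1a was highest and Serpina1c and Serpina1d lowest, r was 0.71 for Serpina1c with Serpina1d, 0.82 for Serpina1a with Serpina1b and -0.66 for Serpina1b with Serpina1e, while that for Serpina1a with Serpina1d changed sign to 0.21. Without CT29 these 4 values were 0.88, 0.72, -0.74 and, for Serpina1a with Serpina1d, -0.68. These are descriptions over 8 and 7 libraries, in each of which the members share depth and lane. Correlations by the upper value were not computed. By that value Serpina1a, Serpina1b, Serpina1c and Serpina1d were all highest in CT41, and Serpina1e was highest in CT23. Among 2956 other genes with a mean of at least 10 RPKM, those whose levels ran closest to the log2 sum of the family were Ftcd (r = 0.94), Nr2c2ap (0.92), U2af2 (0.92), Ddx39b (0.89) and Ppard (0.88). Without CT35 these r were 0.88 to 0.94, and without CT29 they were 0.86 to 0.94. Their own range over the libraries went from 0.35 in U2af2 to 3.00 in Ppard on the log2 scale.

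Genes around the family were read from the same fit. Of 13 tested other clade A serpins, 1 was called by limma: Serpina7, thyroxine-binding globulin, with a log2 peak-to-trough difference of 1.59 ± 0.28 and a peak near CT4.6 (limma, adjusted p = 0.0221). Serpina3k and Serpina3n, the most abundant of this group at 3315 and 235 RPKM, were not called (limma, adjusted p = 0.695 and 0.801). By edgeR 2 were called, since Serpina6, corticosteroid-binding globulin, passed as well (1.10 log2 peak to trough; adjusted p = 0.0313 by edgeR and 0.0647 by limma). Of 10 serpins of other clades, 3 were called by limma: Serpinb1a (1.31 ± 0.19; limma, adjusted p = 0.00657), Serpine2, a thrombin and plasminogen activator inhibitor (1.19 ± 0.19; limma, adjusted p = 0.0116), and Serpinb9, an inhibitor of granzyme B (0.89 ± 0.18; limma, adjusted p = 0.0445). Serpinb9 was not called by edgeR (adjusted p = 0.0671), nor by limma in 7 of the 8 fits that left out 1 library. All 3 had means under 5 RPKM. Serpinc1 (antithrombin) and Serping1 (C1 inhibitor), at 599 and 490 RPKM, were not called (limma, adjusted p = 0.994 and 0.924).

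Elane, Prtn3 and Ctsg, listed here as target proteases of alpha-1 antitrypsin, are made by neutrophils and their precursors. Which member inhibits which protease was not examined. Elane and Prtn3 averaged 0.229 and 0.310 RPKM, Ctsg was listed at 0 in all 8 libraries, and none had enough reads for the test. Of 12 transcription factors, receptors and signal transducers of the Serpina1 promoter, 1 was called: Il6ra, the interleukin-6 receptor (1.31 ± 0.23 log2 peak to trough, peak near CT11.1; limma, adjusted p = 0.0223). Hnf4a and Cebpa, at 145 and 50.2 RPKM, were not called (limma, adjusted p = 0.876 and 0.585). Of 19 genes for endoplasmic reticulum export and quality control of secreted serpins, 1 was called: Syvn1, a ubiquitin ligase of the degradation pathway (1.27 ± 0.23, peak near CT20.9; limma, adjusted p = 0.0216). The chaperones Calr and Hspa5, at 411 and 98.0 RPKM, were not called (limma, adjusted p = 0.185 and 0.380). Of 12 other plasma protein genes 0 were called, Alb (35072 RPKM; limma, adjusted p = 0.619) and Apoa2 (9592 RPKM; limma, adjusted p = 0.759) included. Of the cell type markers tested, 1 was called by limma, Sox9 of bile duct (adjusted p = 0.0313), and edgeR also called Tat of hepatocytes (adjusted p = 0.0186; 0.0637 by limma). With 1 library left out, the limma call was lost without CT41 or CT53 for Serpina7, without CT41 for Serpine2 and without CT23, CT53 or CT59 for Il6ra. It was lost without CT23, CT41 or CT59 for Syvn1 and without CT23, CT29, CT35 or CT53 for Sox9. Serpinb1a stayed called in the 6 such fits it entered, and had too few reads for those without CT29 or CT53.

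Junction reads that joined 2 members made up 7746 of 2326196 reads on member junctions, or 0.333% (exact 95% binomial interval 0.326% to 0.340%). The other 2318450 reads lay within 1 member, and 2314665 of those fell on 25 annotated junctions. The joining reads were concentrated: 35 of the 155 junctions joined an exon of 1 member to the next exon of another, both at annotated exon boundaries, and these 35 held 7499 reads, or 96.8%. Just 1 other joining junction used annotated boundaries at both ends, with 2 reads. At the opposite extreme 95 junctions touched no annotated boundary at either end and held 211 reads together.

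The donor exon always belonged to the member lying upstream, since a listed junction runs forward along the chromosome. Serpina1e joined to Serpina1c held 33.5% of the joining reads, Serpina1a to Serpina1d 33.0% and Serpina1e to Serpina1b 15.4%. The first 2 of these pairs are neighbours on the chromosome, and Serpina1e and Serpina1b are its outermost members. The other neighbouring pairs were rare, with 1.92% for Serpina1d to Serpina1b and 1.74% for Serpina1c to Serpina1a. Set against the members' own reads, joining reads at matching introns numbered 2.75 per 1000 at intron 1, 3.10 at intron 2, 2.93 at intron 3 and 3.97 at intron 4.

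The commonest joining junction ran from exon 4 of Serpina1a to exon 5 of Serpina1d (intron chr12:105002082-105092877, 90796 bases). It had 144, 139, 1302, 276, 148, 263, 115 and 82 reads from CT23 to CT65 in order of time, 2469 in all. CT35 alone gave more than all the other libraries together. It also had the most reads on member junctions, 496541 against 226584 to 302401 in the other libraries. The next ran from exon 3 of Serpina1e to exon 4 of Serpina1c (chr12:105134366-105187256, 52891 bases), with 146, 73, 731, 400, 168, 384, 112 and 90 reads, 2104 in all. The third ran from exon 3 of Serpina1e to exon 4 of Serpina1b (chr12:104967592-105187256, 219665 bases) and behaved differently, with 134, 60, 64, 130, 127, 122, 108 and 156 reads, 901 in all. It was not raised in CT35. Per 1000 reads of the smaller of the own junctions it was 1.57 in CT35, against 4.45 to 6.80 in the other libraries. Exon 2 of Serpina1e to exon 3 of Serpina1c had 343 reads, and exon 1 of Serpina1e to exon 2 of Serpina1a had 315.

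The last of these was unusual in its size beside the gene's own reads. Serpina1a had 562 reads at its own intron 1 and was listed with 315 from exon 1 of Serpina1e, or 560 per 1000. In CT41 the joining reads equalled its own, at 43 each. For the commonest junction the figure was 30.0 per 1000 of the smaller of the own junctions, and for the next 2 it was 6.75 and 4.65 per 1000. The figure for Serpina1a has a limit. All 632 bases of exon 2 are identical in Serpina1a and Serpina1c, so letters in exon 2 do not tell these acceptors apart. Serpina1c was listed with 18 reads from exon 1 of Serpina1e and 435 of its own.

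The share of joining reads was not alike in all libraries. It was 0.513% in CT35, 0.455% in CT41 and 0.439% in CT53, and 0.188% to 0.255% in the other 5 libraries. It did not follow the clock phase: CT41 and CT65 share phase CT17 and had 0.455% and 0.190%, CT29 and CT53 share phase CT5 and had 0.188% and 0.439%. Most of the excess in the 3 high libraries lay in the 2 commonest junctions. The junction from Serpina1a to Serpina1d stood at 30.2 to 93.3 reads per 1000 of the smaller own junction there, against 8.66 to 15.6 in the other 5, and that from Serpina1e exon 3 to Serpina1c stood at 10.3 to 13.5, against 1.92 to 4.40. Without these 2 junctions the share was 0.104% in CT35, 0.175% in CT41 and 0.183% in CT53, against 0.0977% to 0.146% in the other 5. Without CT35 the share over the remaining libraries was 0.284%.

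**Figure D4:**
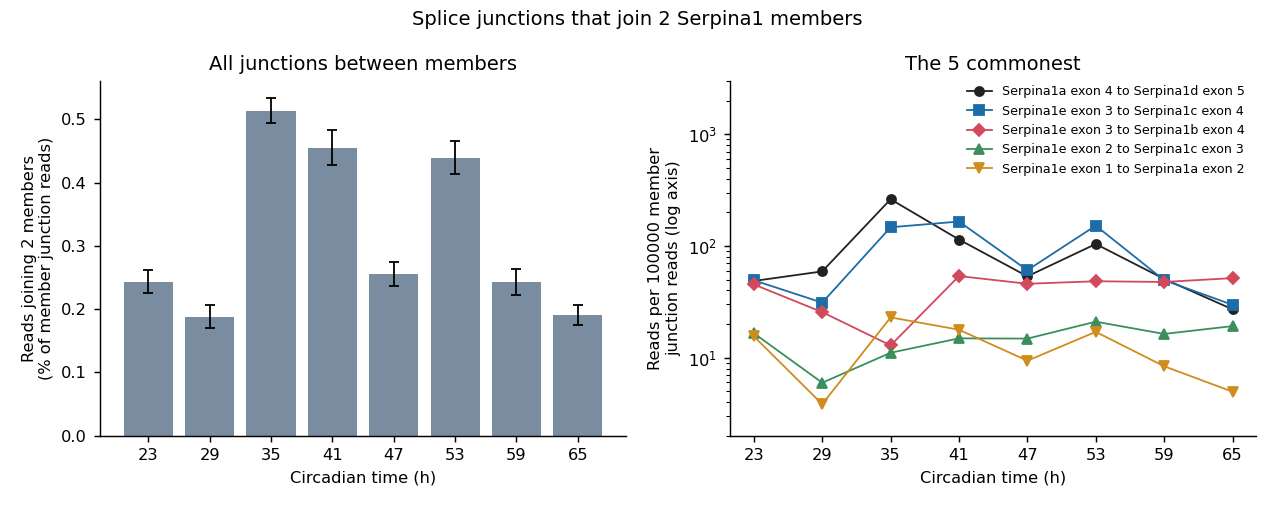
Left, reads on junctions that join 2 Serpina1 genes as a percentage of all reads on member junctions, with exact 95% binomial intervals, for each circadian time. Right, the 5 commonest of these junctions in reads per 100000 member junction reads on a log axis. CT35, CT41 and CT53 stand at 0.439% to 0.513% on the left, and the junctions from Serpina1a exon 4 and from Serpina1e exon 3 to Serpina1c are high in the same 3 libraries on the right.

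Letters beside a join can tell its donor gene from its acceptor gene, and only these genes were compared. The other members were left out, so the counts that follow do not measure how far the sequence supports a join. Of the 35 joining junctions between matching exons, 27, with 4693 reads, had letters within 50 bases on both sides at which the donor and the acceptor gene differ. A further 6, with 2794 reads, had such letters on 1 side, and 2, with 12 reads, had none. With such letters on 1 side only, the joined sequence matches the own junction of 1 parent over these 50 bases each way. The commonest junction, with 2469 reads, is of this middle kind. The genes differ at 2 of the 50 bases before the join and at 0 of the 50 after it. The bases before the join are those of Serpina1a, and the first 55 after it are identical in Serpina1a and Serpina1d. Within 50 bases to each side, letters therefore do not set this join apart from the own junction of Serpina1a.

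The junction from exon 3 of Serpina1e to exon 4 of Serpina1c is of the first kind, with 4 differing letters among the 50 bases before the join and 4 among the 50 after it. Its predicted sequence is shown after those of its parents, 45 bases to each side, with capitals where the parents differ.
Serpina1e exons 3 and 4: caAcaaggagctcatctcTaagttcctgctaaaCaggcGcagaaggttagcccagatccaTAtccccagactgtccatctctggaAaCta
Serpina1c exons 3 and 4: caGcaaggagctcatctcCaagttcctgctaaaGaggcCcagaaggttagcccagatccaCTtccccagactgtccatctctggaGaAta
Serpina1e exon 3 to Serpina1c exon 4: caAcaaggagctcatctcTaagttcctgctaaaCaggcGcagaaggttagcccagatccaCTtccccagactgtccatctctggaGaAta
A read of this kind would carry the letters of Serpina1e on its left and those of Serpina1c on its right. The own junction of Serpina1a is nearly the same, so these letters hardly set such a read apart from Serpina1a. Over the last 50 bases of exon 3, Serpina1a differs from Serpina1e at 1 position. Over the first 126 bases of exon 4, Serpina1a is identical to Serpina1c. The junction from Serpina1e to Serpina1b had 1 differing letter among the 50 bases before the join and 2 among the 50 after it. The deposited lists hold positions and read numbers but no read sequences, so which letters the reads carried was not examined. Whether the joins were made in the cell, in library preparation or in alignment was not tested.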

How the data were processed

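Per the labels, 8 libraries were measured, 1 pool of 3 animals per time. The authors deposited transcript tables with columns named min and max and junction lists with read counts. Coordinates are in mm9, the build named in the submitters' processing notes; the junctions came from RUM, per the file headers. Read length, program versions and junction thresholds were not stated in the labels or headers. The deposited min and max behave as RPKM: both were whole multiples of 1 step per library within 0.1 read for at least 99.997% of values under 200 reads, which gave the reads behind them, and these were used as counts in edgeR 4.0.16. The main test, as planned for RPKM, was limma 3.58.1 (R 4.3.3; mean trend, robust variances) on log2(RPKM + 0.5). Genes needed at least 20 reads in at least 2 libraries, with Benjamini-Hochberg adjustment over all genes. Fold changes on this scale understate changes of low genes. The 24-h fit left 5 residual degrees of freedom and the day fit 3. Each gene was represented by its transcript with most reads. The fit was tested on simulated data with 200 changed genes. Of 115699 transcripts 69.0% could be named. Named were the 5 members, called and most abundant genes of each list, the 5 genes closest to the family sum and the 5 commonest joining junctions. Members and lists were chosen with earlier results of these data known.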

Additional observations from a re-analysis of the deposited data

How the results depend on the processing

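The 5 members stayed without a call for the 24-h component and for the days under all 15 alternatives (upper value, pseudocount of 1 RPKM, no filter, TMM scaling, edgeR, longest transcript, exons 3 to 5, and each library left out), with the smallest adjusted p at 0.456 for Serpina1e. Its log2 peak-to-trough difference ranged from 0.15 to 0.57, that of Serpina1a from 0.05 (without CT35) to 0.42, and that of Serpina1d from 0.02 (upper value) and 0.08 (without CT35) to 0.40. The count of genes called for 24 h was 89 without a filter, when more genes were tested, and 177 to 485 with 1 library left out, rising to 485 when CT35 was omitted and falling to 177 when CT59 was omitted, 185 when either CT23 or CT53 was, and 200 when CT41 was. Without CT29 or CT35, left out after the data were seen, the phase comparisons called 177 to 224 genes for CT23 against CT11 and 41 to 320 for CT5 against CT17. For the days the count was 0 to 5 with 1 library left out (5 without CT23, 1 without CT35, 5 without CT47 and 1 without CT59) and 0 otherwise. The summed level of 22203 RPKM became 112979 with the upper value, 21039 with the longest transcripts, 74490 with exons 3 to 5, and 21834 to 22508 with 1 library left out. With the upper value the mean shares were 22.4% for Serpina1a, 19.5% for Serpina1b, 26.8% for Serpina1c, 15.2% for Serpina1d and 16.1% for Serpina1e. With the longest transcripts they were 5.52%, 18.7%, 21.9%, 17.2% and 36.7% in the same order, and with exons 3 to 5 they were 6.22%, 16.4%, 27.0%, 16.5% and 33.9%. With 1 library left out they were 5.00% to 5.49% for Serpina1a, 17.4% to 18.2% for Serpina1b, 20.1% to 21.4% for Serpina1c, 16.0% to 16.8% for Serpina1d and 38.6% to 41.1% for Serpina1e. The share of joining reads was 0.323% with annotated boundaries at both ends and 0.284% to 0.354% with 1 library left out. No paired analysis was possible because the replicate number, 1 for every library, only names the single library of each time; the phase block of the day comparison is part of its own fit. Depth limits little here, since each member holds at least 19957 reads in every library. Over the whole transcript the order of the members rests on the choice between the lower and the upper value, while over exons 3 to 5 both put Serpina1e and Serpina1c first and second by their means and Serpina1a last. The cause of the gap was not tested.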

Other observations

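Between Serpina1d and Serpina1a the junction lists held a further set with the layout of a Serpina1 gene. Introns at chr12:105060458-105066180, chr12:105058366-105059825, chr12:105057210-105058094 and chr12:105056258-105057058 measured 5723, 1460, 885 and 801 bases, close to introns 1 to 4 of the members (5465, 1450, 885 and 801 bases in Serpina1a). They had 2348, 107, 936 and 865 reads over the 8 libraries and each was listed in all 8. No member transcript is annotated there in the deposited tables. The junction of 5723 bases had 90 reads in CT35 and 268 to 372 in the other 7 libraries, although CT35 was the deepest. That of 801 bases was also lowest in CT35, with 28 reads against 76 to 139. That of 1460 bases was highest there, with 29 against 9 to 14, and that of 885 bases had 100 against 73 to 174. A total of 84 junctions with 1182 reads joined this stretch to a member, of which 532 reads ran from exon 2 of Serpina1e to the left end of the intron at chr12:105058366-105059825.

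Within members, 317 junctions were not annotated and held 3785 reads. The commonest was in Serpina1d, where an inner position was joined to exon 2 across chr12:105006258-105006948 with 558 reads, and 339 reads joined exon 1 to a position close by across chr12:105007177-105011740. Serpina1e had the same arrangement, with 219 reads across chr12:105190557-105195066 and 139 across chr12:105189623-105190328. Serpina1b had a similar pair at another place, with 122 reads from exon 1 across chr12:104973542-104976306 and 136 to exon 2 across chr12:104970803-104973380. The junction to exon 2 measured 2578 bases there, against 691 in Serpina1d and 706 in Serpina1e. In Serpina1c, 106 reads joined exon 1 to an inner position across chr12:105138570-105143068 and 100 joined another inner position to exon 2 across chr12:105137600-105142721. In Serpina1a, inner exons between exons 1 and 2 are annotated.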
